A study of Mus musculus with 4 samples.

Results

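Messenger RNAs for the proteins of the cytosolic ribosome were compared between monocytes (MON) and neutrophils (NEU) of mouse peripheral blood. The members were the protein-coding genes whose symbols begin with Rpl or Rps and a number, together with Rpsa, Rplp0, Rplp1 and Rplp2, and without the Rps6 kinases. This rule found 92 genes of the 43346 gene identifiers in the tables. They comprised 46 genes of the large 60S subunit, 31 genes of the small 40S subunit, 9 paralogs or other symbols, and 6 genes that carry a pseudogene name but are annotated as protein-coding. Of the 92 members, 87 had enough counts for testing. Rpl10l, Rpl39l, Rpl36-ps4, Rpl36a-ps1 and Rpl9-ps1 were not tested: the first 3 of these were at 0 in each of the 4 libraries, and the other two had at most 13.4 expected counts in any library.

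Total RNA of 4 libraries was sequenced, 2 from monocytes and 2 from neutrophils of wild-type adult C57BL6 mice with no treatment named. Blood was layered over Ficoll, and the monocytes were Gr-1+Mac-1+ cells sorted out of the mononuclear layer, although a table in the study's supplement describes their gate as Ly6g-, CD11b+. The neutrophils came from the cell pellet once red cells had been lysed, and no sort is named for them. The study's supplement allows that replicates were either separate groups of mice taken on separate days or sorter aliquots of a single group, and does not say which holds for these libraries, so the p-values below measure the spread between libraries, which may be technical. Libraries were depleted of ribosomal RNA and primed with random hexamers, and expected counts (read numbers estimated by RSEM, which divides reads that fit several genes among them) totalled 20549572 to 26076261 per library. Cell type markers followed the labels in part. The 8 monocyte markers summed to 6326 and 5959 CPM (counts per gene, scaled to a common library total) in MON 1 and MON 2, against 797 and 821 in NEU 1 and NEU 2. The 8 neutrophil markers summed to 326 and 358 CPM in the monocyte libraries, against 7592 and 7860 in the neutrophil libraries, and Ly6g was at 0 in both monocyte libraries. Of these 8, Retnlg alone was called higher in monocytes. Ly6c2 was the only monocyte marker of the 8 that did not pass the test.

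A ribosome reads a messenger RNA on its 40S subunit and joins amino acids on its 60S subunit. Nearly every one of its proteins is present once per ribosome, so cells make them in matched amounts, and their messenger RNAs share a terminal oligopyrimidine (TOP) start, a cytosine followed by further pyrimidines, through which mTOR and LARP1 control their translation. Blood cells are sensitive to the supply of these proteins: in humans, inherited loss of 1 copy of several of the genes causes Diamond-Blackfan anaemia, a failure of red cell production. Neutrophils are short-lived cells that finish much of their protein synthesis before they leave the marrow.

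Promoter sequences were searched for letters that can form part of a pyrimidine-rich start. A RefSeq promoter (GRCm38.p6, 250 bases before to 50 after the start) was matched by symbol for 57 of the 77 proteins of the 2 subunits. The letters CTTTC stood on the coding strand between 20 bases before and 50 bases after the start in 30 of them (52.6%), against 9.33% of 16317 protein-coding genes with such a window. The search did not place the letters at the first transcribed base. They stood in 22 of 34 genes (64.7%) of the 60S subunit and 8 of 23 genes (34.8%) of the 40S subunit. Over the whole promoter and both strands, CCGGAAG, a core of ETS factor sites, was found in 42.1% of the genes, against 13.5% of all protein-coding genes. TCTCGCGA, an element of promoters that lack a TATA box, stood in 19.3%, against 1.65%, and TATAAA in 10.5%, against 14.1%. No motif contains another, and a match describes the window only. The following 30-base stretches, with CTTTC in capitals, are from genes that hold it, 3 with large differences between the cell types and 3 with small or opposite ones. Rpl34, Rps2 and Rps15 had a promoter without it. They lie at chr13:90923142-90923171 (plus strand), chr2:180257399-180257428 (plus), chr11:114668568-114668597 (plus), chr10:128626482-128626511 (minus), chr17:28328574-28328603 (plus) and chr2:32961710-32961739 (plus), in the order printed.
Rps23: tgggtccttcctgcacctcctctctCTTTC
Rps21: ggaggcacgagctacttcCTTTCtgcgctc
Rpl38: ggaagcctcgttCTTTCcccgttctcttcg
Rps26: ccgccggatcctCTTTCgagtcttggctcc
Rpl10a: gcgctctgccttCTTTCcggtttccgcggc
Rpl12: ccgtcttttcggCTTTCggctcggaggagg
The median log2 fold change of monocytes over neutrophils was 0.59 for the 30 genes with CTTTC near the start and 0.74 for the 27 genes without it.

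The ribosomal protein genes held a larger share of the monocyte libraries. The 92 genes took 2.98% of the expected counts in MON 1 (95% Wilson interval 2.976 to 2.989) and 2.95% in MON 2 (2.943 to 2.956), against 1.79% in NEU 1 (1.786 to 1.798) and 1.91% in NEU 2 (1.900 to 1.912). These intervals cover counting error only, since the reads were amplified and carry no molecular identifiers. The mean share was 2.97% ± 0.0233 in monocytes and 1.85% ± 0.0805 in neutrophils (SD, n = 2 each), a ratio of 1.60, and the groups did not overlap. No test was run on this sum, because an exact test of 2 against 2 libraries cannot give a two-sided p below 0.333. The 60S proteins held 1.70% of monocyte counts and 1.07% of neutrophil counts, and the 40S proteins 1.19% of monocyte counts and 0.747% of neutrophil counts. The ratio of 60S to 40S counts was 1.42 and 1.43 in the monocyte libraries, against 1.43 and 1.43 in the neutrophil libraries, so the balance of the subunits was nearly the same in all 4 libraries while their share differed.

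**Figure D1:**
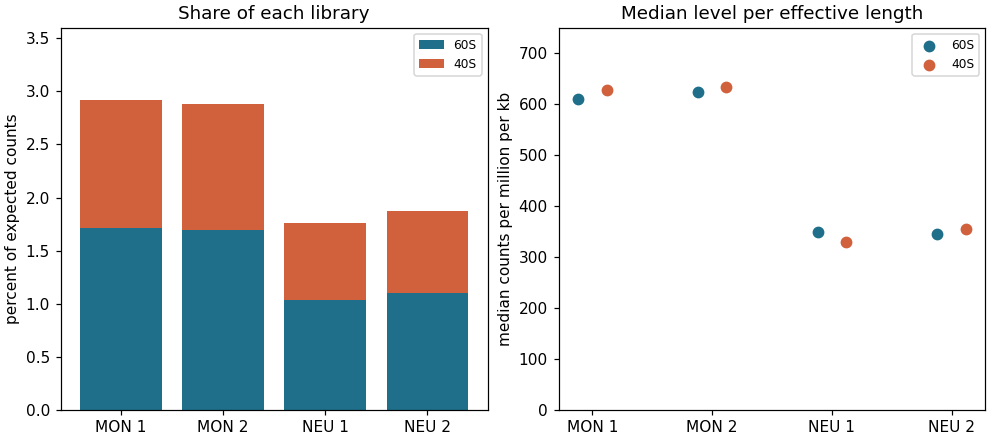
Share of expected counts held by 60S and 40S proteins (left, bars stacked from 0, percent) and median level of the proteins of each subunit (right, CPM per kb of effective length) in each of the 4 libraries (MON, monocyte; NEU, neutrophil). The stacked bars are near 2.9% in both monocyte libraries and under 1.9% in both neutrophil libraries, and the 2 subunits lie close together within each library.

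Counts of other cell types moved with the groups as well. The 8 NK cell markers summed to 2503 CPM in each monocyte library, against 25.8 and 26.6 in the neutrophil libraries, and the 8 B cell markers to 702 and 818 in the monocyte libraries, against 4472 and 4383 in the neutrophil libraries. The 8 T cell markers summed to 92.5 and 104 CPM in monocytes, against 117 and 125 in neutrophils, but they did not move together. Lck, with 66.9 and 72.6 CPM in monocytes, against 22.4 and 23.1 in neutrophils, was called higher in monocytes. Of the other T cell markers, 5 were called lower and 2 were not called. For the 8 platelet markers the sums were 57.8 and 54.1 in monocytes, against 108 and 121 in neutrophils, and for the 8 red cell markers 6219 and 6663 in monocytes, against 8067 and 8740 in neutrophils. The 8 basophil and mast cell markers summed to 248 and 242 in monocytes, against 346 and 358 in neutrophils, but Hdc dominated that sum. Hdc had 87.0 and 80.5 CPM in monocytes, against 338 and 351 in neutrophils. Of the 7 of these markers tested, 6 were called higher in monocytes and only Hdc lower. All 8 NK cell markers were called higher in monocytes and all 8 B cell markers lower, and the defining markers Ncr1 and Cd79a were above 0 in every library. The part of these cells in the results was not tested, and in bulk RNA fewer cells of a type and less RNA per cell cannot be told apart.

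Most of the genes were higher in monocytes one by one. Of 87 members tested, 68 were called higher in monocytes and 1 lower, at an adjusted p under 0.05 in an edgeR fit over 14309 genes, against 20.8% of all tested genes called higher and 21.8% called lower. The median log2 fold change of the members was 0.70 (a 1.63-fold difference), with a range of -0.47 to 2.45, and the median over all tested genes was -0.06. In 78 of the 87 members both monocyte libraries lay above both neutrophil libraries, against 35.1% of all tested genes. Among the 60S proteins, 39 of 46 were called higher in monocytes, with a median log2 fold change of 0.72 and quartiles of 0.44 and 0.92. Among the 40S proteins, 23 of 31 were called higher and 1 lower, with a median of 0.62 and quartiles of 0.31 and 0.87. Without NEU 1, 18 of the 69 called members lost their call, and without NEU 2, 12 did, leaving 51 members called higher in monocytes without NEU 1 and 60 without NEU 2. The median log2 fold change of the members was 0.63 without NEU 1 and 0.69 without NEU 2. A fit with 1 library in a group takes its spread from the other group, on the assumption that both vary alike, and the biological coefficient of variation between replicates, over all tested genes, was 45.6% in monocytes and 14.7% in neutrophils. Fold changes moved in these fits as well, and the part of the spread in calls lost or gained was not tested.

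**Figure D2:**
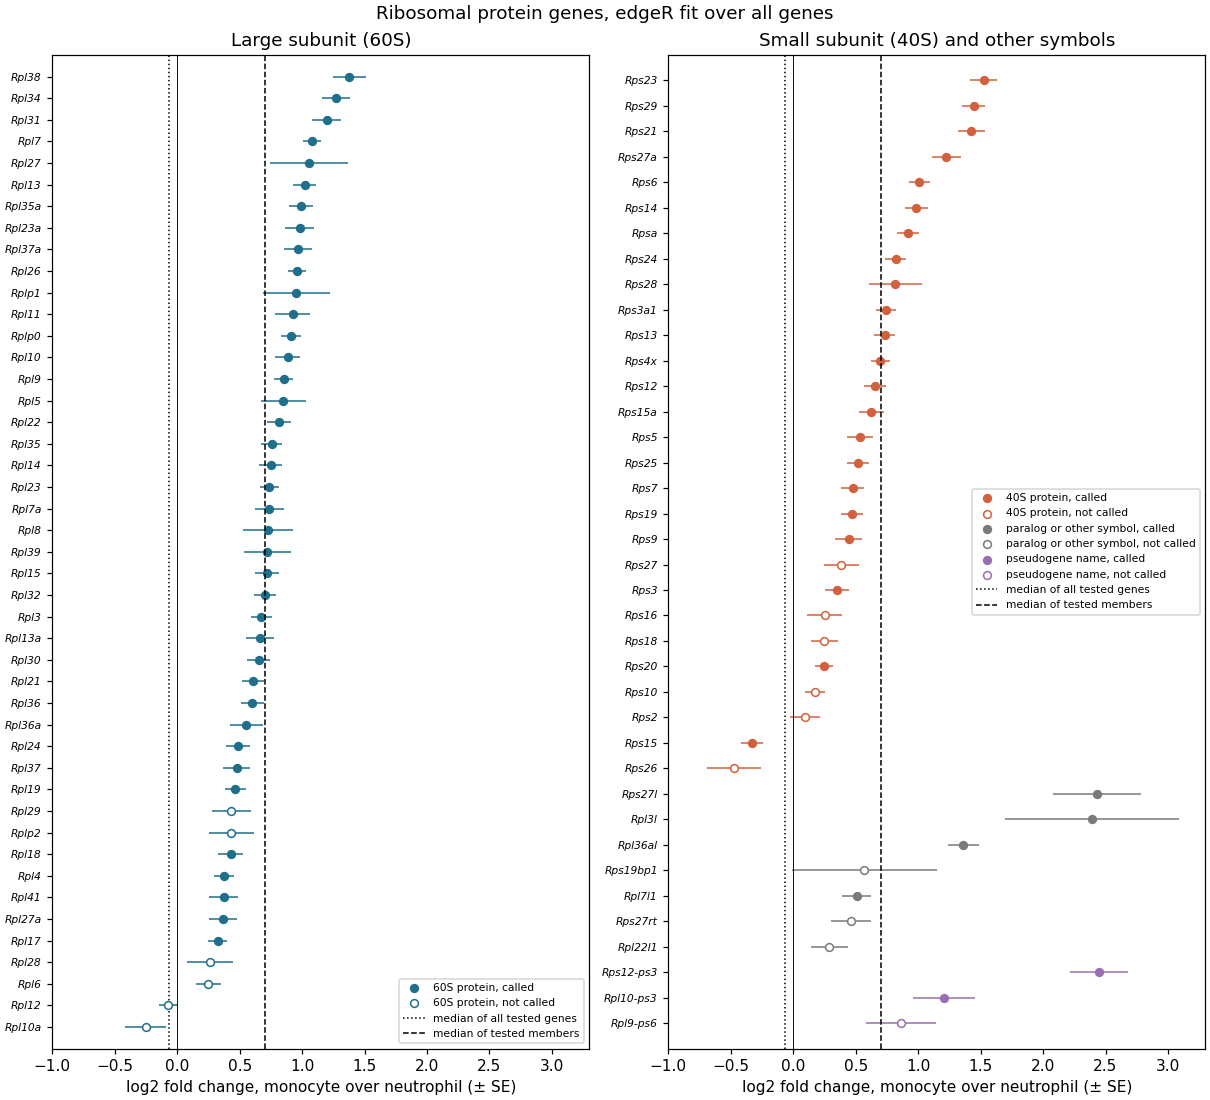
Log2 fold change of monocytes over neutrophils (x axis, ± standard error) for tested members, with 60S proteins at left and 40S proteins, paralogs and pseudogene names at right. Filled points passed an adjusted p of 0.05, the dotted line is the median of all tested genes (-0.06) and the dashed line that of the members (0.70). Rps26, Rps15, Rpl10a and Rpl12 stand left of 0.

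The 40S subunit held the widest differences among proteins of either subunit. Rps23, which sits at the decoding centre, had 788 and 741 CPM in the monocyte libraries, against 243 and 289 in the neutrophil libraries, a log2 fold change of 1.52 ± 0.11 (SE, adjusted p = 0.000327). Rps29, a small zinc-binding protein of the head, had 282 and 315 CPM in monocytes, against 110 and 109 in neutrophils (1.44 ± 0.09 on the log2 scale, adjusted p = 0.000212). Rps21, which human cells need to process the RNA of the 40S subunit, had 217 and 186 CPM in monocytes, against 75.9 and 74.3 in neutrophils (1.42 ± 0.11, adjusted p = 0.000374). Rps27a, made as a fusion with ubiquitin that is later cut off, had 336 and 274 CPM in monocytes, against 128 and 132 in neutrophils (1.23 ± 0.12, adjusted p = 0.000839). Each of these 4 genes had its groups well apart and was called in all 4 fits that left out a library.

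Rps15 and Rps26 stood at the other end of the small subunit. Rps15, whose tail reaches the decoding centre, had 205 and 193 CPM in monocytes, against 241 and 259 in neutrophils, a log2 fold change of -0.33 ± 0.08 (adjusted p = 0.0261), and it was the only member called lower. Its value was -0.40 (adjusted p = 0.0873) without NEU 1 and -0.30 (adjusted p = 0.203) without NEU 2, so the call was lost in both. Rps26, which touches the messenger RNA at the exit of its channel, had 40.1 and 61.9 CPM in monocytes, against 70.5 and 71.2 in neutrophils (-0.47 ± 0.21, adjusted p = 0.131). The lower of its monocyte libraries was MON 1, and the value was -0.84 without MON 2 and -0.21 without MON 1. Rps2, at the entry of the channel, had 152 and 188 CPM in monocytes, against 159 and 160 in neutrophils, and its groups overlapped (0.09 ± 0.12, adjusted p = 0.575). Rps3, also at the entry, had 620 and 606 in monocytes, against 445 and 515 in neutrophils (0.35 ± 0.10, adjusted p = 0.0315, and lost without NEU 1, where it was 0.24). Rps28, near the exit, had 97.4 and 148 in monocytes, against 64.4 and 75.1 in neutrophils (0.82 ± 0.21, adjusted p = 0.0276). Of the 6 proteins of the messenger channel and decoding centre, 3 were thus called higher, against 20.8% of all tested genes, and 1 lower, against 21.8%, with a median of 0.22.

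In the large subunit the differences were more even. Rpl38, known in mice for its part in the translation of Hox messenger RNAs, had 137 and 164 CPM in monocytes, against 53.9 and 61.9 in neutrophils (1.38 ± 0.13 on the log2 scale, adjusted p = 0.000852). Rpl34 had 487 and 443 in monocytes, against 177 and 209 in neutrophils (1.27 ± 0.11, adjusted p = 0.000623). At the lower end stood Rpl10a. Rpl10a, of the L1 stalk that helps spent transfer RNA leave, had 62.2 and 85.0 CPM in monocytes, against 89.1 and 86.4 in neutrophils (-0.25 ± 0.16, adjusted p = 0.270). Its groups did not overlap, though MON 2 lay close to NEU 2, and the value was -0.51 without MON 2 and -0.064 without MON 1.

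The 8 proteins that line the polypeptide tunnel or surround its exit were all called higher in monocytes. The share called higher was 84.8% among all 60S proteins and 20.8% among all tested genes. The median log2 fold change of the 8 was 0.74, with a range of 0.32 to 1.20. The largest was that of Rpl31 at the exit, with 112 and 97.8 CPM in monocytes, against 44.97 and 46.8 in neutrophils. Rpl23a, a docking site of the signal recognition particle, and Rpl26, which stands near it at the exit, had log2 fold changes of 0.98 and 0.96. Rpl4 and Rpl17, which form the narrow part of the tunnel, had the smallest of the 8, at 0.38 and 0.32, and Rpl19, Rpl35 and Rpl39 lay between. Without one of the neutrophil libraries the calls of Rpl4, Rpl17, Rpl19 and Rpl39 were lost. Rpl4 was then 0.39 without NEU 1 and 0.33 without NEU 2, Rpl17 was 0.28 without NEU 1 and 0.33 without NEU 2, Rpl19 was 0.39 without NEU 1, and Rpl39 was 0.48 without NEU 2. Rpl5 and Rpl11, which bind the 5S ribosomal RNA and can restrain Mdm2 to raise p53, were both called higher. Rpl5 had 382 and 506 CPM in monocytes, against 214 and 279 in neutrophils, with a log2 fold change of 0.85 ± 0.18. Rpl11 had 175 and 189 CPM in monocytes, against 83.6 and 108 in neutrophils (0.92 ± 0.14).

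Of the 4 proteins of the P-stalk, on which elongation factors land, and its base, 2 were called higher in monocytes, with a median of 0.67. The share called higher was 78.2% among all tested members and 20.8% among all tested genes. Rplp0, the base of the P-stalk, had 693 and 742 CPM in monocytes, against 369 and 393 in neutrophils (0.91 ± 0.08, adjusted p = 0.000682). Rplp1 had 532 and 455 in monocytes, against 184 and 327 in neutrophils (0.95 ± 0.27, adjusted p = 0.0351). Its partner Rplp2 had 432 and 361 in monocytes, against 245 and 343 in neutrophils (0.43 ± 0.18, adjusted p = 0.108). For both partners NEU 1 was the lower neutrophil library, and Rplp2 was called without NEU 2, at 0.67, and without MON 2, at 0.54. Rpl12, which holds the base of the stalk, had 312 and 305 in monocytes, against 317 and 332 in neutrophils (-0.07 ± 0.08, adjusted p = 0.489). The groups of Rpl12 lay close together, whereas those of Rplp0 were far apart.

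Of 15 genes known in humans as causes of Diamond-Blackfan anaemia, 13 were called higher in monocytes (86.7%, against 78.2% of all tested members and 20.8% of all tested genes), with a median log2 fold change of 0.82 and summed levels of 4794 and 4942 CPM in monocytes, against 2763 and 3016 in neutrophils. Rps19, the gene most often affected in patients, had 227 and 233 CPM in monocytes, against 158 and 175 in neutrophils (0.47 ± 0.09, and 0.38 without NEU 1, where the call was lost). Rps24, Rps7, Rpl15 and Rpl35a had log2 fold changes of 0.82, 0.48, 0.72 and 0.99. Rpl27 was called at 1.05 ± 0.32 on few reads, and lost its call at 0.88 without NEU 1 and 1.21 without NEU 2. Rps10, with 180 and 177 CPM in monocytes, against 161 and 156 in neutrophils, and Rps26 did not pass the test. Rps7 also lost its call without NEU 1, at 0.40.

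The differences among members were examined on a second scale, in which each library was divided by the summed counts of the members, so that a fold change is relative to the set itself. On this scale 14 of 87 members were called higher in monocytes and 14 lower, against 9.04% of all tested genes called higher and 43.0% called lower. The 5 higher among the 60S proteins were Rpl38, Rpl34, Rpl31, Rpl7 and Rpl13, and the 6 higher among the 40S proteins included Rps23, Rps29, Rps21, Rps27a and Rps6. The lower ones were 5 proteins of the 60S subunit, among them Rpl12, Rpl10a, Rpl17 and Rpl6, and 9 of the 40S subunit, among them Rps26, Rps15, Rps2, Rps10, Rps20, Rps18, Rps16 and Rps3. Relative to the set, Rps23 differed by 0.85 ± 0.11 and Rps15 by -1.01 ± 0.10 on the log2 scale, so the ends of the order lay apart by more than their errors. The medians of the subunits were 0.03 for the 60S and -0.05 for the 40S proteins. All 9 lower 40S members had log2 fold changes between -0.47 and 0.35 on the first scale.

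Levels were compared between genes only per length, as CPM per kb of effective length, the length over which a fragment can start. The median over the proteins of the 2 subunits was 619 and 625 in the monocyte libraries, against 329 and 348 in the neutrophil libraries, a ratio of 1.84. Rps24 had the highest level in both cell types, with 2081 and 2232 in monocytes, against 1168 and 1155 in neutrophils, which was 3.49 times the median in monocytes and 3.41 times in neutrophils. The next in monocytes were Rpl13a (mean 1864), Rpl26 (1808), Rps27 (1528) and Rplp1 (1516), and the next in neutrophils were Rps27 (1107), Rpl13a (1070), Rplp2 (1050) and Rpl17 (956). Rps27 and Rplp1 differed by less than the spread of their libraries in monocytes, as did Rps27, Rpl13a and Rplp2 in neutrophils. The level of Rps27 rests on a very short effective length of 87.3 to 101 bases. The order of the 87 genes was close between libraries, with a Spearman's rho of 0.98 within each cell type and 0.89 to 0.92 across cell types, as a description over genes that share a library. Rps15 held place 42 of 87 in monocytes and place 10 in neutrophils, and Rpl38 held place 31 in monocytes and place 55 in neutrophils. The lowest 5 levels of tested members in monocytes were those of Rps19bp1 (5.42), Rpl3l (5.58), Rpl7l1 (28.3), Rpl27 (29.98) and Rpl9-ps6 (32.4), and in neutrophils Rps27l (8.22) stood among them in place of Rpl7l1.

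**Figure D3:**
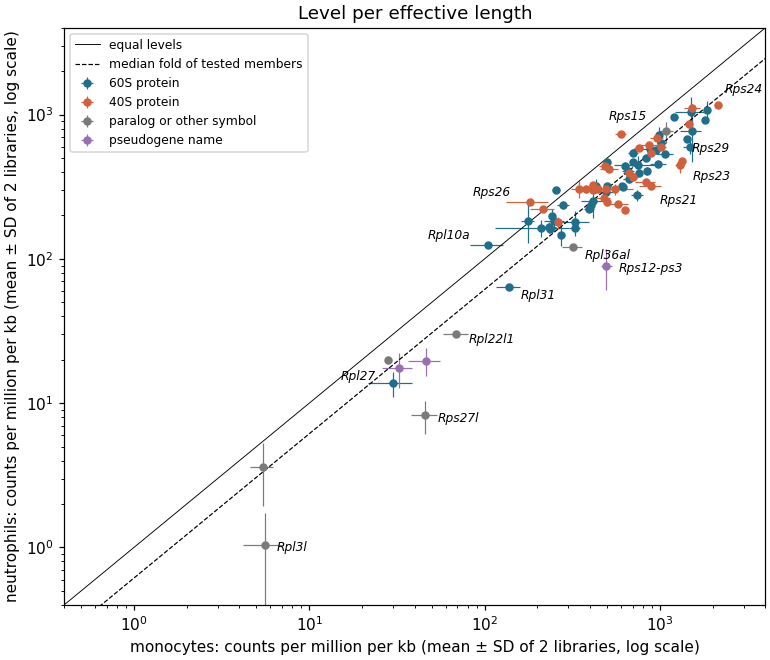
Level per effective length of the 87 tested members in monocytes (x axis) and neutrophils (y axis), both in CPM per kb on log scales, as the mean ± SD of 2 libraries. The solid line marks equal levels and the dashed line the median fold change of the members. Rps15, Rps26 and Rpl10a are among the members above the line of equality, and Rps12-ps3, Rps27l and Rpl3l fall farthest below the dashed line.

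Paralogs are relatives of the standard proteins, some of which are made in particular tissues. Rps27l, a target of p53 and a relative of Rps27, had 13.7 and 19.0 CPM in monocytes, against 2.39 and 3.68 in neutrophils, a log2 fold change of 2.43 ± 0.35 (adjusted p = 0.00356). Rpl36al, a retrotransposed relative of Rpl36a, had 126 and 108 in monocytes, against 43.2 and 47.6 in neutrophils (1.36 ± 0.13, adjusted p = 0.000722), whereas Rpl36a itself had a fold change of 0.55 ± 0.13. Rpl3l, known as the form of Rpl3 made in heart and skeletal muscle, had 5.62 and 4.01 in monocytes, against 1.33 and 0.490 in neutrophils (2.39 ± 0.69, adjusted p = 0.0387). Rps27l and Rpl3l had the largest fold changes of the members without a pseudogene name. Rpl3l was carried by 10 to 147 counts per library and lost its call without NEU 2, at 1.82. Rpl22l1, a relative of Rpl22, had 32.8 and 35.0 CPM in monocytes, against 25.7 and 29.9 in neutrophils (0.29 ± 0.15, adjusted p = 0.176). Rpl7l1, a nucleolar relative of Rpl7, had a fold change of 0.51 ± 0.11 and lost its call without either neutrophil library, at 0.43 and 0.55. Rps19bp1, which binds Rps19 and is not part of the ribosome, had at most 102 counts per library and did not pass the test (0.57 ± 0.58, adjusted p = 0.481). Rps4l, a relative of Rps4x outside the rule, had 74 and 73 counts in monocytes, against 20 and 13 in neutrophils, and also did not pass (1.86 ± 0.68, adjusted p = 0.0760).

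The start of the coding sequences shows how closely some of these relatives resemble each other, which decides whether a read can be placed. Bases that differ from Rps27 (chromosome 3) and from Rpl36a (chromosome X) are in capitals. The first 90 coding bases are printed, from GENCODE M21 transcripts.
Rps27: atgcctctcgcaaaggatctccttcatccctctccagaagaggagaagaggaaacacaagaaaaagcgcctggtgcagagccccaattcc
Rps27l: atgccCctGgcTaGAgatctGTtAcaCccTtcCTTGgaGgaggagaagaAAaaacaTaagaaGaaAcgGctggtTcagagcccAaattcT
Rpl36a: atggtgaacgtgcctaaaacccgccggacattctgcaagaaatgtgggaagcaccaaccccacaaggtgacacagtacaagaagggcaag
Rpl36al: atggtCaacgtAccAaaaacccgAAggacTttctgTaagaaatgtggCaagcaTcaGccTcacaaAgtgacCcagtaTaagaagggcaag
Rps27l (chromosome 9) differed from Rps27 at 60 of 252 coding bases, and Rpl36al (chromosome 12) from Rpl36a at 39 of 318. In contrast, Rps27rt (chromosome 9) had no difference from Rps27 over the 252 bases, and 91.1% of its 50-base words also occur in another gene. Rps27rt had 200 and 241 CPM in monocytes, against 138 and 181 in neutrophils (0.46 ± 0.16, adjusted p = 0.0668), and Rps27 had 124 and 159 in monocytes, against 111 and 106 in neutrophils (0.38 ± 0.14, adjusted p = 0.0735). Neither passed alone in this fit, while both passed with all 4 libraries under the DESeq2 test, with no filter and with effective length as an offset. With their counts added, as an alternative chosen after seeing the data, the fold change of Rps27 was 0.44 ± 0.13 (adjusted p = 0.0433).

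Copies of this kind were common, and retrotransposed copies of ribosomal protein messenger RNAs are known to be scattered over the mouse genome. In the annotation, 62 of the 77 proteins of the 2 subunits had at least 1 near-copy, a gene with at least 50% of its 50-base words in common with the member (177 in all). Of these, 160 were annotated pseudogenes, of 58 members, 8 were protein-coding genes, and 7 were miRNAs or snoRNAs, which need not be retrotransposed copies. In 48 of the 77 genes the member held over 90% of the reads of itself and its near-copies in every library. This count includes the genes without a near-copy, whose share is 100% by definition. In 5 genes the member held under 50% in every library. These were Rpl27, Rpl5, Rps6, Rpl31 and Rps27, with shares of 3.75 to 6.64%, 17.4 to 25.3%, 28.4 to 44.9%, 31.8 to 44.6% and 36.8 to 44.5%, in that order. Rpl27 had 10.8 and 16.1 CPM in monocytes, against 5.72 and 7.20 in neutrophils, and the lowest level per length of any 60S protein. Its copy Rpl27-ps3 had 275 and 164 in monocytes, against 96.6 and 110 in neutrophils. Gm11518, another pseudogene with all of its 50-base words in Rpl27, had 1.07 and 62.3 in monocytes, against 36.6 and 29.6 in neutrophils. How reads were divided between these copies was not tested. Rpl5 was exceeded by Gm15500 (chromosome 7:114705217-114706235), a transcribed pseudogene with 1812 and 1582 CPM in monocytes, against 807 and 821 in neutrophils (1.06 ± 0.09, adjusted p = 0.000593). Rps23-ps1, a copy of Rps23, had 321 and 401 CPM in monocytes, against 129 and 118 in neutrophils, and its log2 fold change of 1.55 was close to that of Rps23. The level of a member with such copies is below that of the gene and its copies together.

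For Rps6 and Rps12 the copies changed the comparison. Rps6, the protein that S6 kinases phosphorylate (chromosome 4), shares all 747 coding bases with Rps6-ps4 (chromosome 2:75191073-75191822), and Rps12 (chromosome 10) shares all 396 with Rps12-ps3 (chromosome 19:59322290-59322783). Their first 90 coding bases are printed to show the sequence that a read cannot place.
Rps6: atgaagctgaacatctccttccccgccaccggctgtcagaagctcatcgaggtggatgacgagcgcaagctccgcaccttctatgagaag
Rps12: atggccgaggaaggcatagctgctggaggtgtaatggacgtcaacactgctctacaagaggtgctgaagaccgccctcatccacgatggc
Rps6 had 360 and 341 CPM in monocytes, against 167 and 181 in neutrophils (1.01 ± 0.09, adjusted p = 0.00056). Rps6-ps4 had 440 and 457 in monocytes, against 419 and 420 in neutrophils (0.10 ± 0.07, adjusted p = 0.349). With the copies added, Rps6 had a log2 fold change of 0.43 ± 0.07 (adjusted p = 0.00593), below the median of the members. Rps12 had 155 and 146 CPM in monocytes, against 96.0 and 95.1 in neutrophils (0.65 ± 0.09, adjusted p = 0.00263). Rps12-ps3, itself a member by its annotation, had 150 and 173 in monocytes, against 22.8 and 36.4 in neutrophils, which was the largest fold change of all members (2.45 ± 0.23, adjusted p = 0.000826). With the copies added, Rps12 had a log2 fold change of 1.25 ± 0.12 (adjusted p = 0.000781), so the order of Rps6 and Rps12 turned round. Rpl10a moved as well, to 0.089 ± 0.15 (adjusted p = 0.665). These were the 3 proteins of the 77 that moved by over 0.3 with near-copies added.

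**Figure D4:**
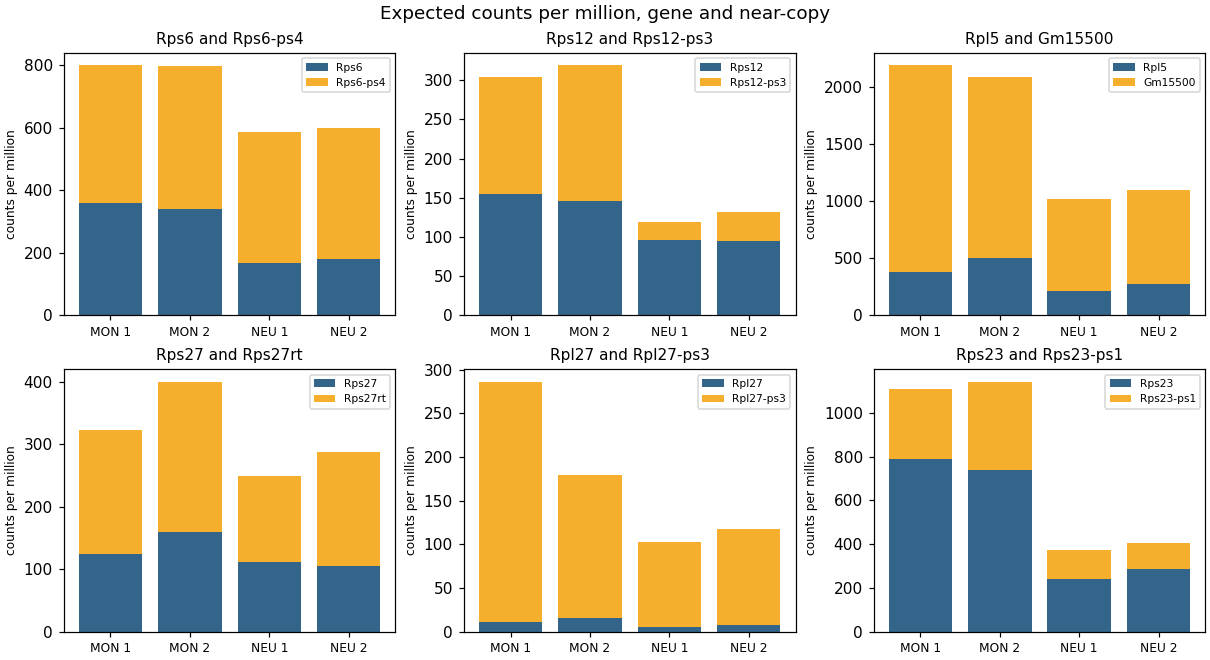
Expected CPM (y axis, from 0) of 6 members and, stacked on top, of 1 near-copy each, in the 4 libraries (MON, monocyte; NEU, neutrophil). Rps6-ps4 is nearly level across the libraries while Rps6 is higher in monocytes, Rps12-ps3 is small in neutrophils, and Gm15500 and Rpl27-ps3 exceed Rpl5 and Rpl27 in every library.

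RSEM also gives a posterior spread for each count. The posterior coefficient of variation (posterior standard deviation over posterior mean count) of the highest library had a median of 0.408% over the 77 proteins and was under 1% in 64 of the 87 tested members. It was above this median for Rps6 (2.55%), Rps12 (2.76%) and Rps12-ps3 (5.88%). It passed 10% in Rpl10-ps3 (13.7%), a tested member with 29.97 and 22.8 CPM in monocytes, against 9.63 and 13.3 in neutrophils (1.20 ± 0.25, and 0.97 without NEU 1, where the call was lost), and in Rpl36a-ps1 (22.5%), which was not tested. Rpl9-ps6, at 8.49%, had a fold change of 0.86 ± 0.28 (adjusted p = 0.0554). Across the 77 proteins the fold change had a Spearman's rho of 0.02 with this coefficient and 0.03 with the share of a gene's 50-base words found in another gene, both as descriptions over genes of the same libraries.

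Effective length differed between the cell types in few genes. The means differed by over 20% in 4 tested members. Rps15a had 379 bases in monocytes and 594 in neutrophils, and Rpl22l1 had 497 in monocytes and 917 in neutrophils. Rpl35 had 758 bases in monocytes and 552 in neutrophils, and Rpl27a had 987 in monocytes and 760 in neutrophils. RSEM averages this length over the transcripts it finds, so a difference can arise where other transcripts of the gene were given the reads. Levels of single transcripts were not examined. When the effective length entered the fit as an offset, Rps15a had a log2 fold change of 1.29, against 0.62 on counts, and Rpl22l1 had 1.19 ± 0.19 (adjusted p = 0.00702), against 0.29 on counts. Rpl35 had 0.29, against 0.76 on counts, and Rpl27a had -0.046, against 0.37 on counts, and neither was called. Rpl27a also lost its call on counts without NEU 1, at 0.25. Rps15 had -0.30 in this fit and was not called.

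**Figure D5:**
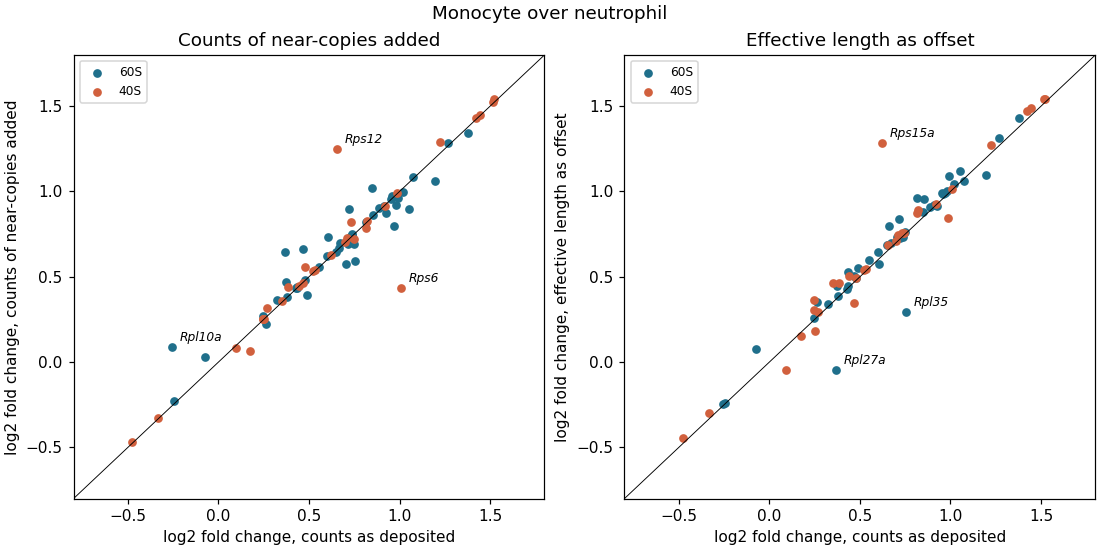
Log2 fold change of monocytes over neutrophils for the 77 proteins of the 2 subunits on counts as deposited (x axis) and, on the y axis, with the counts of near-copies added (left) or with effective length as an offset (right). Genes that moved by over 0.3 are named: Rps12, Rps6 and Rpl10a at left, and Rps15a, Rpl35 and Rpl27a at right, while the others lie near the line of equal values.

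Ribosomal proteins with other symbols were called higher in 3 of 4 cases. Rack1, a scaffold on the 40S head, had 568 and 568 CPM in monocytes, against 312 and 333 in neutrophils (0.81 ± 0.08). Fau, whose fusion yields a 40S protein, had 388 and 340 in monocytes, against 332 and 365 in neutrophils, and its groups overlapped (0.06 ± 0.10, adjusted p = 0.659). Of 20 other genes with TOP messenger RNAs, 14 were called higher in monocytes (70.0%, against 20.8% of all tested genes) and 1 lower (5%, against 21.8%), with a median of 0.68. The 2 largest were Eif3e and Eif3m, of initiation factor eIF3 (1.20 and 1.02), and the one called lower was Pabpc1, the poly(A)-binding protein (-0.60 ± 0.09). The elongation factor Eef1a1 had 4189 and 4588 CPM in monocytes, against 2756 and 2833 in neutrophils, whereas Eef2 had a fold change of 0.09 ± 0.07 and was not called.

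Genes that build ribosomes were counted against the same background. Of 30 assembly factors, 8 were called higher in monocytes (26.7%, against 20.8% of all tested genes) and 2 lower (6.67%, against 21.8%), with a median log2 fold change of 0.34. Ltv1 and Pno1, which act in 40S maturation, were the largest (1.56 ± 0.16 and 1.34 ± 0.17), and Wdr12, of 60S assembly, and Utp20, of the small subunit processome, were the ones called lower (-1.49 ± 0.17 and -0.53 ± 0.13). Of 13 genes of RNA polymerase I and its factors, which transcribe ribosomal DNA, 5 were called higher (38.5%, against 20.8%) and 3 lower (23.1%, against 21.8%), with a median of 0.45. Taf1d and Polr1c led (1.13 and 0.96), and Taf1c and Polr1b were lowest (-1.32 and -0.94). Of 11 tested regulators of growth and of TOP messenger RNAs, 4 were called lower in monocytes (36.4%, against 21.8% of all tested genes), with a median of -0.37. Mxd1, a partner of Max that opposes Myc, had 136 and 140 CPM in monocytes, against 1114 and 1090 in neutrophils (-3.00 ± 0.08), and Eif4ebp2, a repressor of cap-dependent translation, had a fold change of -1.43 ± 0.26. The other two called lower were Eif4ebp1 and Mtor, the kinase that phosphorylates it. No difference between these sets and the ribosomal proteins was tested.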

How the data were processed

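RNA was measured in 2 monocyte and 2 neutrophil libraries, grouped by the labels' descriptions. Per the labels and the study's methods, the authors aligned reads to mm10 with STAR and estimated gene levels with RSEM. The deposited values used were expected counts (estimated read numbers per gene), with posterior mean counts and their posterior standard deviation, and the effective length. The deposited TPM (read numbers per length, scaled to the same sum in every library) was used in alternatives only. No source used here states which strand was counted.

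Identifiers were matched to GENCODE M21 on mm10 (42462 of 43346), and the study's own release was not used. Rounded expected counts were scaled by TMM (factors 0.9936 to 1.006), filtered with filterByExpr (14309 genes kept) and tested with the edgeR 4.0.16 quasi-likelihood F test in R 4.3.3, with Benjamini-Hochberg adjustment over all genes tested and a threshold of 0.05. The standard error was the fold change over the square root of F. The fit was tested on simulated data with the same spread in both cell types. The simulation did not copy the unequal spread of these libraries, 45.6% in monocytes and 14.7% in neutrophils as a biological coefficient of variation. CPM divides a count by the TMM-scaled library total, and levels per length divide CPM by the effective length in kb. Near-copies share at least 50% of their 50-base words with a member in GENCODE M21 transcripts. Sequences are from these transcripts and from RefSeq promoters.

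Members, lists and alternatives were chosen with earlier results of these data known. Named were the 10 called members with the largest change in each direction, the 5 highest and 5 lowest levels per length in each cell type, members with a posterior coefficient of variation over 10%, a length difference over 20% or a fold change over 1 log2 unit from the members' median, members of the lists, and of lists without members the 2 largest calls in each direction. Other genes were named after their values were seen, and some genes that the rule names are not reported here, although they remain in all counts and medians. Alternatives were other scalings and filters, DESeq2 1.42.0, limma 3.58.1 on log2(TPM + 1) and log2(TPM + 0.1), posterior mean counts, a length offset, added pseudogenes or near-copies, and leaving out each library.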

Additional observations from a re-analysis of the deposited data

How the results depend on the processing

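The number of members called higher in monocytes (68) stayed between 54 and 74 under the other scalings, filters, tests and counts that kept the 4 libraries, apart from the members' own scale, and between 51 and 75 when a library was left out. The number called lower (1) was 2 with upper-quartile factors, with protein-coding genes alone, with no filter, with a filter of 10 CPM in 2 libraries and with the DESeq2 test, 0 with the length offset and with limma on either TPM scale, and 0 to 4 when a library was left out. The counts on the members' own scale (14 higher and 14 lower) were 68 and 1 on the TMM scale. The share of counts held by members was 3.90% in monocytes and 2.57% in neutrophils over protein-coding genes, and 1.26% in monocytes and 0.734% in neutrophils as a sum of TPM, and in each case the groups kept their order. The median over all tested genes was -0.32 with no filter, against -0.06.

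Of 53 named members, 4 changed sign under some setting. Rpl10a was 0.085 with named pseudogenes added and 0.089 with near-copies added (adjusted p = 0.682 and 0.665). Rpl12 was 0.078 with the length offset, 0.027 with near-copies added, and 0.11 with limma on either scale. Rpl27a was -0.046 with the length offset. Rps2 was -0.044 with the length offset, -0.022 with limma on log2(TPM + 1), -0.023 with limma on log2(TPM + 0.1), and between -0.085 and 0.22 when a library was left out. Of the other values of these members under alternatives, 798 kept their call, 46 lost it and 35 gained it. The cause of the changes was not tested, other than that near-copies and lengths enter those settings directly. No paired analysis was possible because the replicate numbers were assigned in deposit order and the labels give no day or mouse group by which libraries could be paired. With 2 libraries in a group, a fit without 1 of them has little to measure spread from, and depth limits Rpl3l, Rps19bp1 and Rps27l, which had at most 484 counts in any library.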
